A study of Mus musculus with 18 samples.

Results

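Gja5 and 4 further genes of cell-to-cell and cell-surface channels, Gja1, Gja4, Gjc1 and Panx1, were followed across all 18 RNA-seq libraries of a C2C12 myotube experiment. The 5 genes were listed by name and found in the deposited count table through their Ensembl identifiers with the symbols of GENCODE M39, out of 55414 genes in the table and 21772 that were tested. Gja5 stood on the list because its level in palmitic acid was higher after both silencings, so its values in palmitic acid libraries chose it and are given as a description with no test. The other 4 genes stood on the list by name, but the list was drawn up with earlier results of these data known. All 5 passed the minimum of 10 counts over the 18 libraries.

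C2C12 is an established mouse myoblast line that fuses into myotubes in low-serum medium. Confluent myoblasts were transfected with a non-targeting siRNA pool (siNTC) or with siRNA pools against Erk3 (siErk3, gene Mapk6) or Mk5 (siMk5, gene Mapkapk5) and differentiated for 6 days. Serum was then left out for 16 h while the myotubes received either 0.5 mM palmitic acid carried on BSA (PA) or BSA alone. The 6 groups are siNTC, siErk3 and siMk5 in BSA and the same 3 in PA, with 3 libraries each, and every group, controls included, carried a transfected siRNA and was free of serum at the end. All libraries come from a single line, an siRNA pool lowers a transcript without deleting its gene, and no source says whether the 3 libraries of a group came from separate cultures, so p-values measure only the spread between these libraries, which may be technical.

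Connexins (Gj genes) assemble into hemichannels that dock between neighbouring cells to form gap junctions, which pass ions and small metabolites. Pannexins work as channels of a single membrane and release ATP, which purinergic receptors then sense. Myoblasts couple through connexins while they align and fuse, and mature muscle fibres carry little of them. Gja5 is best known from atrial and conduction-system cardiomyocytes and from arterial endothelium, Gja1 is the most widespread connexin, Gja4 is a connexin of arterial endothelium, Gjc1 is found in pacemaker cells and smooth muscle, and Panx1 is a widely expressed pannexin.

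On GRCm39, the build of the count table, Gja5 lies on chromosome 3 from 96812009 to 96984732 on the plus strand, with 5746 exonic bases in 6 merged exons. Gja1 lies on chromosome 10 from 56253426 to 56278609 (plus strand), Gja4 on chromosome 4 from 127205214 to 127207832 (minus strand), Gjc1 on chromosome 11 from 102690405 to 102710526 (minus strand) and Panx1 on chromosome 9 from 14913424 to 14956774 (minus strand). In Gja5, 165 exonic bases are shared with Gpr89 on the opposite strand, which stranded counting separates, and the other 4 genes share no exonic base with another gene. Start regions from RefSeq matched 4 of the 5 genes, without Gjc1, and each had a single exact match on GRCm39. Those of Gja5, Panx1 and Gja1 are printed because in PA these genes took a lower level, a higher level and nearly the same level. Each is written 5′ to 3′ on the strand of its gene, and ends before the first base of the window that GENCODE M39 places in an exon. For Panx1 and Gja1 that exon reaches beyond the spans above, which come from the older annotation of the count table. Capitals mark a GC box (GGGCGG).
Gja5, chr3:96939468-96939710, plus strand: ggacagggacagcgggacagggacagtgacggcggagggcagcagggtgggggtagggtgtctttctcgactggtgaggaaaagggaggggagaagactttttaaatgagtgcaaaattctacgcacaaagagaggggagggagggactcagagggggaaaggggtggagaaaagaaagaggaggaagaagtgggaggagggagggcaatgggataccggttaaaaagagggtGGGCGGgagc
Panx1, chr9:14956814-14957024, minus strand: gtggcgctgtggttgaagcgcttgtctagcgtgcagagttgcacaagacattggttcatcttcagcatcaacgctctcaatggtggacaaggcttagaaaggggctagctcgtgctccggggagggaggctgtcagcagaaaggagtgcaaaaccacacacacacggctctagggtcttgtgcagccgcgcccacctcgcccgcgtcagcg
Gja1, chr10:56253146-56253240, plus strand: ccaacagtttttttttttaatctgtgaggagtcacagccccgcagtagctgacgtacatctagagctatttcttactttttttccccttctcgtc
The Gja5 stretch ends directly before an annotated transcript start and lies inside the span of the gene in the count table, outside every exon of GENCODE M39. Over the 250 bases before the RefSeq start, GC content was 56.4% for Gja5, 59.6% for Panx1, 50% for Gja1 and 61.2% for Gja4, beside a median of 52.4% over 32851 promoters.

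Both strands of the 250 bases were searched for 7 motifs. The E-box (CANNTG) was present in 66.2% of all 32851 promoters. The GC box (GGGCGG) was present in 32.7% of promoters and the TATA box (TATAAA) in 12.4%. A T-box half-site (TCACACCT) was present in 1.12%. The AP-1 site (TGANTCA) was present in 6.75%. A GATA site (AGATAA) was present in 9.99% of promoters and the MEF2 box in 2.92%. Gja5 held a single GC box at position -17 from the RefSeq start and no other motif of the 7, Gja4 a single GC box at -79, and Panx1 none. Gja1 held an E-box at -23, an AP-1 site at -19 and a GATA site at -135, all beyond the stretch printed. A match describes letters only.

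Total counts per library ran from 13041979 to 28496727, with a median of 22417471. Mapk6 averaged 57.4 ± 2.64 TMM CPM (CPM of the library size as scaled by the trimmed mean of M values, SD, n = 3) in siErk3 BSA against 132 ± 3.18 in siNTC BSA, and 119.9 ± 11.4 in siErk3 PA against 232 ± 14.7 in siNTC PA. Mapkapk5 averaged 66.2% of the siNTC level in siMk5 BSA and 71.2% in siMk5 PA. Neither difference passed the criteria (edgeR quasi-likelihood test, Benjamini-Hochberg FDR 0.469 in BSA and 0.469 in PA). The paper reports that Western blots showed silencing of both targets. The 18S ribosomal RNA gene took 8.39 to 12.9% of counts in siMk5 BSA, 1.497 to 2.96% in siErk3 BSA, 2.56 to 7.17% in siNTC BSA and 5.32 to 6.43%, 3.74 to 6.77% and 1.71 to 6.69% in siNTC, siErk3 and siMk5 PA. Refitting without the 18S gene changed no call of a listed gene. Myotube markers were present in every library (8 of 8 passed the count minimum). Of 8 endothelial markers 6 passed, Tie1 and Emcn had 0 counts in all libraries, and the list summed to 1.33 to 2.47 TMM CPM. Of 3 immune markers only Cd68 passed, at 0.568 to 1.72 TMM CPM.

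Gja5 was the most abundant per exonic length of the connexins analysed here in BSA, although Gja1 had the higher mean TMM CPM in each BSA group. The Gja5 level lay lower in PA in all 3 silencing states, by less after siErk3 and siMk5 than in siNTC. In BSA the siNTC libraries gave 85.7, 87.3 and 89.2 TMM CPM, the siErk3 libraries 93.04, 89.4 and 98.9, and the siMk5 libraries 103, 92.3 and 89.4. In PA the siNTC libraries gave 36.9, 31.6 and 30.1, the siErk3 libraries 47.1, 52.7 and 58.7, and the siMk5 libraries 49.7, 50.6 and 60.99. Every PA library lay below every BSA library, and within PA every silenced library lay above every siNTC library, while siErk3 and siMk5 libraries overlapped. Without overlap, 24.3%, 26.5% and 24.6% of all tested genes lay lower in PA in siNTC, siErk3 and siMk5, and 6.3% and 5.9% lay higher in siErk3 and siMk5 than in siNTC in PA. In bulk RNA, fewer cells of a type and less RNA per cell cannot be told apart.

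**Figure D1:**
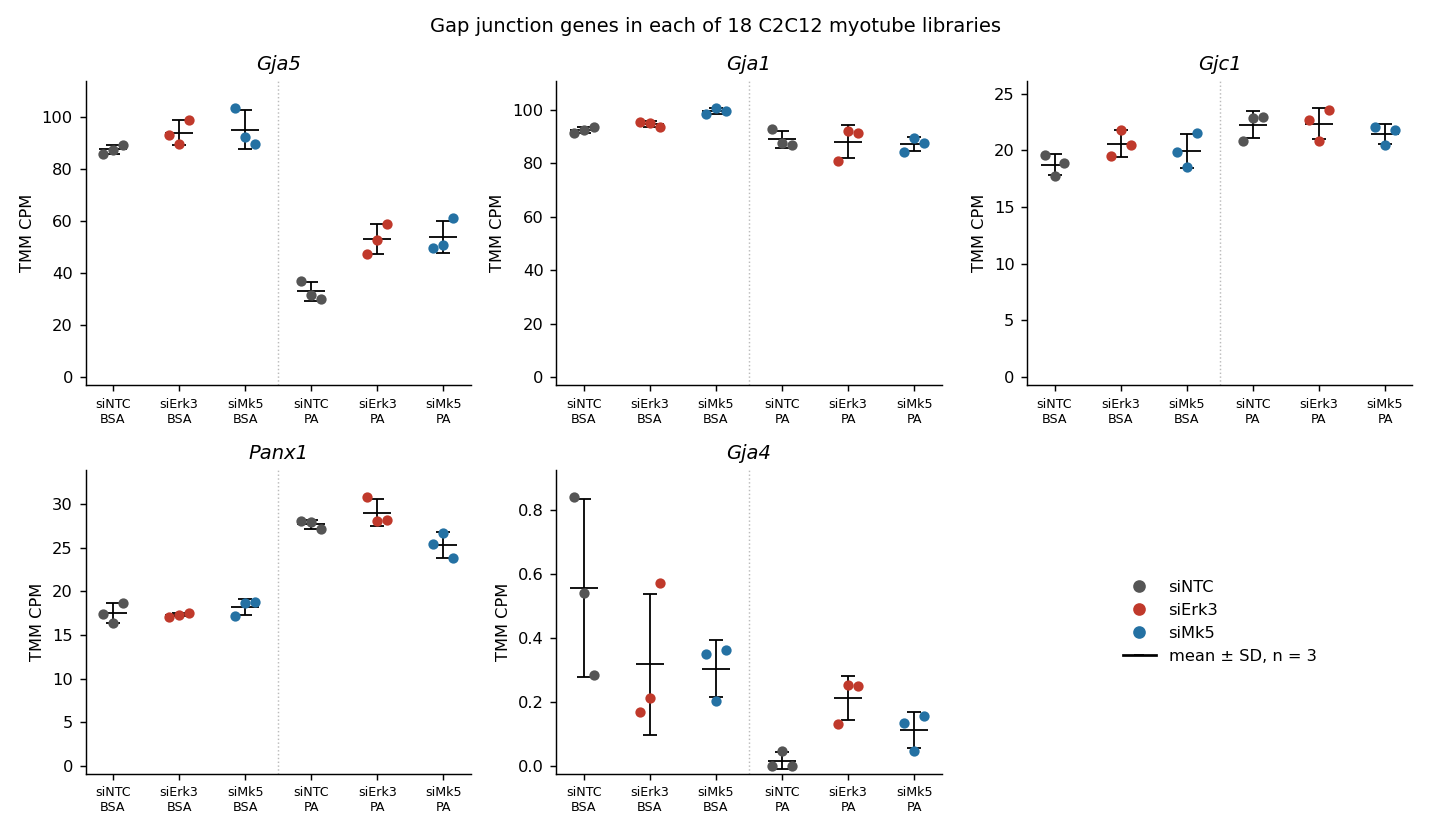
Level of each gene (vertical axis, TMM CPM from 0) in each of the 18 libraries, grouped by siRNA and medium on the horizontal axis, with 1 point per library and a black bar for mean ± SD (n = 3). Gja5 lies at 85.7 to 103 in BSA and 30.1 to 60.99 in PA, Panx1 at 16.4 to 18.7 and 23.8 to 30.9, and Gja1 and Gjc1 differ little between groups.

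Group means of Gja5 were 87.4 ± 1.77 TMM CPM in siNTC BSA, 93.8 ± 4.79 in siErk3 BSA and 95.05 ± 7.38 in siMk5 BSA (SD, n = 3). They were 32.9 ± 3.59 in siNTC PA, 52.8 ± 5.77 in siErk3 PA and 53.7 ± 6.29 in siMk5 PA. The PA level of Gja5 came to 37.7% of the BSA level in siNTC, 56.2% in siErk3 and 56.4% in siMk5, or log2 differences of -1.41 ± 0.08, -0.83 ± 0.075 and -0.83 ± 0.076 (edgeR estimate ± SE). That log2 difference was 41.05% smaller in siErk3 and 41.4% smaller in siMk5 than in siNTC. Set against siNTC in PA, the Gja5 level was 1.602-fold in siErk3 (log2 0.68 ± 0.081) and 1.63-fold in siMk5 (log2 0.70 ± 0.082). Both of these comparisons use the same 3 siNTC PA libraries. They are the values that chose Gja5 and carry no test, and so do the interactions of silencing with PA, log2 0.58 ± 0.11 for siErk3 and 0.58 ± 0.11 for siMk5.

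What the choice of Gja5 did not use is its level in BSA. There the Gja5 level was 1.07-fold that of siNTC in siErk3 (log2 0.10 ± 0.073, FDR 0.685, edgeR) and 1.09-fold in siMk5 (log2 0.12 ± 0.074, FDR 0.782), and neither passed the criteria of FDR below 0.05 and a fold change above 1.3. All 3 libraries of each silenced group lay above the 3 siNTC libraries, as did those of 11.5% of all tested genes in siErk3 and 7.3% in siMk5. siErk3 and siMk5 differed by -0.020 ± 0.072 on the log2 scale in BSA (FDR 0.984) and, as a description, by -0.024 ± 0.078 in PA.

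Gja1 held nearly the same level throughout. Its libraries gave 91.5, 92.3 and 93.5 TMM CPM in siNTC BSA, 95.6, 95.1 and 93.6 in siErk3 BSA and 98.3, 100.7 and 99.5 in siMk5 BSA. In PA they gave 92.7, 87.4 and 86.8 in siNTC, 80.9, 92.04 and 91.2 in siErk3 and 84.3, 89.5 and 87.4 in siMk5. The BSA libraries of siMk5 lay highest. All siMk5 PA libraries lay below them, as for 24.6% of all tested genes. That Gja1 difference, log2 -0.19 ± 0.048, had an FDR of 0.00128 (edgeR) but was smaller than 1.3-fold, and Gja1 passed both criteria in no comparison. In siNTC the PA difference of Gja1 was log2 -0.055 ± 0.048 (FDR 0.393), and within PA siErk3 and siMk5 differed from siNTC by -0.015 ± 0.048 and -0.031 ± 0.048.

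Gjc1 differed little as well. Its libraries gave 19.6, 17.8 and 18.9 TMM CPM in siNTC BSA, 19.5, 21.8 and 20.5 in siErk3 BSA and 19.8, 18.5 and 21.5 in siMk5 BSA. In PA the values were 20.9, 22.9 and 22.99 in siNTC, 22.7, 20.8 and 23.6 in siErk3 and 22.1, 20.5 and 21.8 in siMk5. Between media only the siNTC groups of Gjc1 did not overlap, with PA higher, as for 26.9% of all tested genes. That Gjc1 difference was log2 0.25 ± 0.074 (FDR 0.00554, edgeR), which was again smaller than 1.3-fold. The PA differences of Gjc1 in siErk3 and siMk5 were log2 0.11 ± 0.07 (FDR 0.195) and 0.11 ± 0.073 (FDR 0.265).

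Panx1 rose with PA in all 3 silencing states. Libraries in BSA gave 17.4, 16.4 and 18.7 TMM CPM in siNTC, 17.1, 17.3 and 17.5 in siErk3 and 17.1, 18.7 and 18.7 in siMk5. Those in PA gave 28.03, 28.001 and 27.1 in siNTC, 30.9, 28.1 and 28.2 in siErk3 and 25.4, 26.7 and 23.8 in siMk5. No PA library overlapped the BSA libraries, as for 26.9%, 27.5% and 27.3% of all genes that lay higher. Panx1 was 1.59-fold higher with PA in siNTC (log2 0.67 ± 0.069, FDR 1.22e-09, edgeR), 1.68-fold in siErk3 (log2 0.75 ± 0.066, FDR 3.57e-11) and 1.39-fold in siMk5 (log2 0.48 ± 0.068, FDR 5.97e-07). Within PA the siMk5 libraries lay below those of siNTC (as for 6.09% of genes). The siErk3 libraries lay above those of siNTC (as for 6.3% of genes) and of siMk5 (as for 7.46% of genes). No difference between silencings passed the criteria. Panx1 differed between siErk3 and siMk5 in PA by log2 0.20 ± 0.064 (unadjusted p = 0.00453, FDR 0.168) and between siMk5 and siNTC by -0.13 ± 0.065 (FDR 0.751).

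Gja4 rested on few reads and was nearly absent from siNTC PA. It had 12, 13 and 6 counts in the siNTC BSA libraries, 4, 5 and 16 in siErk3 BSA and 8, 4 and 7 in siMk5 BSA. In PA it had 0, 1 and 0 counts in siNTC, 3, 7 and 5 in siErk3 and 3, 1 and 3 in siMk5. In siNTC, 31 counts in BSA stood against 1 in PA, a ratio of 33.4 (95% interval 5.56 to 1361, exact, counting error only). This difference passed the criteria (edgeR FDR 4.06e-05). In siErk3 the same comparison of Gja4 had 25 counts against 15 (ratio 1.56, interval 0.792 to 3.19, FDR 0.385), and in siMk5 19 against 7 (ratio 2.75, interval 1.11 to 7.75, FDR 0.0913). Within PA, siErk3 stood at 15 counts against 1 in siNTC, a ratio of 13.6 (interval 2.09 to 572), with an unadjusted p of 0.00279 and an FDR of 0.172 from edgeR. The Gja4 ratio for siMk5 was 7.09 (interval 0.911 to 319.7, FDR 0.7296). All siErk3 PA libraries held more Gja4 counts than any siNTC PA library. By TMM CPM, 6.3% of all tested genes lay higher in that way. siMk5 PA replicate 2 and siNTC PA replicate 2 tied at 1 count. Neither the siErk3 nor the siMk5 difference of Gja4 in PA passed the criteria, and neither did its interactions with PA (FDR 0.401 and 0.568).

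Over the comparisons of silencing, the members gave no call. Of the 5 genes tested in BSA, 0 passed both criteria in siErk3, where 0.785% of all tested genes did, and 0 in siMk5, where 0.0643% did. Of the 4 tested in PA, 0 passed in siErk3 (0.556% of all genes) and 0 in siMk5 (0.547%). At an unadjusted p below 0.05 the edgeR counts were 0 and 1 in BSA and 1 and 1 in PA, and DESeq2 also called 0 in each. Between siErk3 and siMk5, 0 members passed in BSA (0.588% of all genes) and 0 in PA (1.03%), with 0 and 1 at an unadjusted p below 0.05 and 0 by DESeq2. For the interaction of silencing with PA, 0 passed for siErk3 (0.0367% of all genes) and 0 for siMk5 (0.211%), with 1 and 1 at an unadjusted p below 0.05, Gja4 in both, and 0 by DESeq2.

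PA itself moved much of the transcriptome, with 30.6% of tested genes called in siNTC, 32.1% in siErk3 and 29.7% in siMk5. Of the 4 members tested, Panx1 was called higher and Gja4 lower in siNTC, where 15.5% of all genes were called higher and 15.1% lower. Panx1 was the only member called in siErk3 (15.8% higher and 16.3% lower) and in siMk5 (15.1% higher and 14.6% lower). The members' counts, 2 of 4 in siNTC and 1 of 4 after either silencing, are to be read against these shares.

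**Figure D2:**
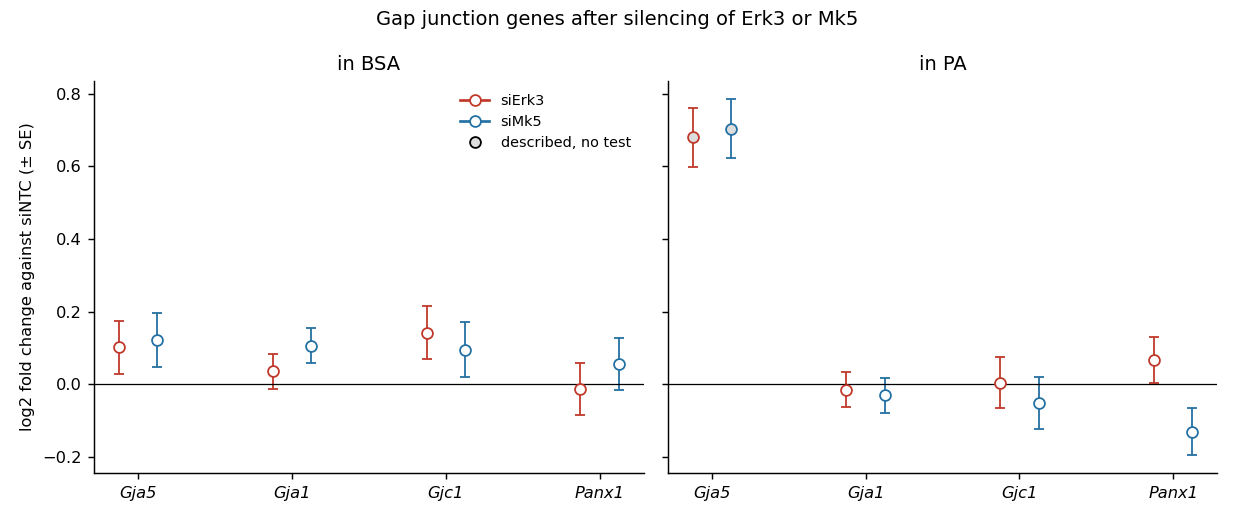
Difference of each silenced group from siNTC (vertical axis, log2 fold change ± SE from edgeR) for Gja5, Gja1, Gjc1 and Panx1, in BSA on the left and in PA on the right, siErk3 in red and siMk5 in blue. Gja5 in PA sits at 0.68 and 0.70 (grey fill, described without a test), and the other points lie between -0.13 and 0.14.

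Levels per length changed the order of the connexins. The merged exonic lengths used were 5746 bases for Gja5 and 10257 for Gja1. Undivided, Gja1 averaged 92.4 TMM CPM in siNTC BSA and 88.97 in siNTC PA, above Gja5 at 87.4 and 32.9. The order of these 2 genes in BSA thus depends on the lengths used. In TMM FPKM (TMM CPM divided by exonic length in kilobases), siNTC BSA held Gja5 at 15.2 ± 0.307, Gja1 at 9.01 ± 0.0989, Gjc1 at 3.75 ± 0.187, Panx1 at 2.902 ± 0.192 and Gja4 at 0.3301 ± 0.166 (SD, n = 3). In siNTC PA the order was Gja1 at 8.67 ± 0.315, Gja5 at 5.72 ± 0.624, Panx1 at 4.597 ± 0.0844, Gjc1 at 4.45 ± 0.239 and Gja4 at 0.00902 ± 0.0156. Per length, Gja5 and Gja1 exchanged places there, and Panx1 and Gjc1 differed by less than their spread. In siErk3 PA and siMk5 PA, Gja5 stood at 9.196 ± 1.004 and 9.35 ± 1.09 and Gja1 at 8.58 ± 0.604 and 8.49 ± 0.256 TMM FPKM, so that the means of this leading pair differed by no more than their spread. Per library, the ratio of Gja5 to Gja1 ran from 1.67 to 1.704 in siNTC BSA, from 0.619 to 0.711 in siNTC PA, from 1.02 to 1.15 in siErk3 PA and from 1.01 to 1.25 in siMk5 PA.

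Summed over the 10 connexin genes analysed here that were past the count minimum, the level was 31.2 ± 0.631 TMM FPKM in siNTC BSA and 20.2 ± 0.816 in siNTC PA. It was 33.4 ± 0.984 and 23.96 ± 1.85 in siErk3, and 33.5 ± 1.25 and 23.3 ± 1.25 in siMk5. Gja5 made up 48.8 ± 0.983% of that sum in siNTC BSA and 28.3 ± 1.91% in siNTC PA, against 38.3 ± 1.26% in siErk3 PA and 40.01 ± 2.49% in siMk5 PA. The share of Gja1, whose own level hardly moved, was 28.9 ± 0.497% in siNTC BSA and 43.04 ± 0.271% in siNTC PA. These shares rest on the same exonic lengths, hold the values that chose Gja5 and are given without a test.

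**Figure D3:**
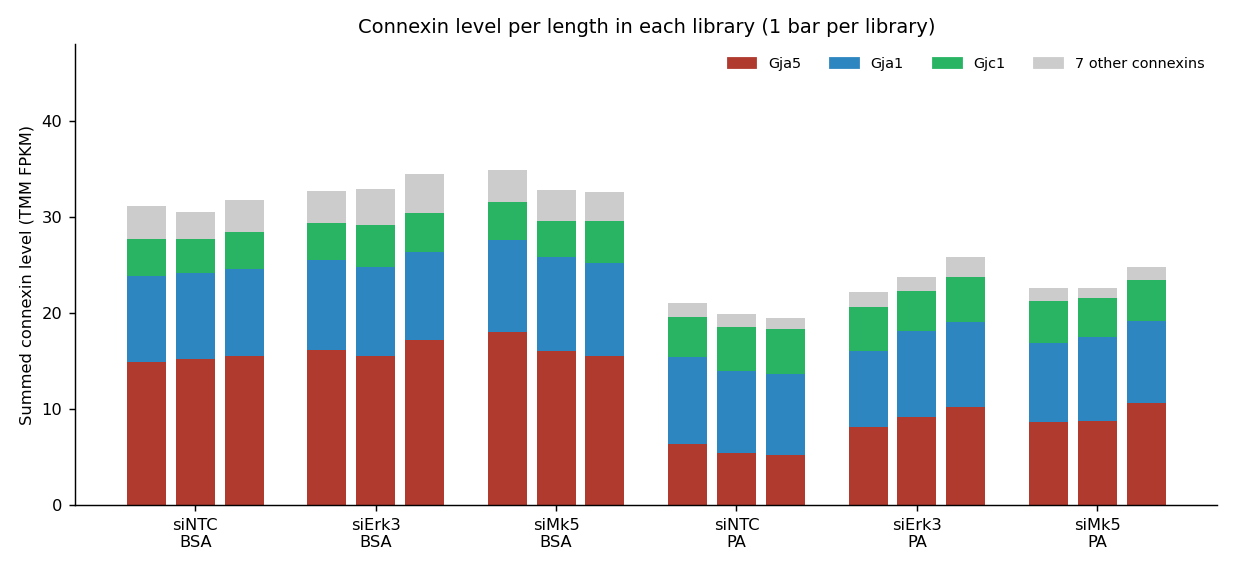
Connexin level per length in each library (vertical axis, summed TMM FPKM from 0), with 1 stacked bar per library and the groups on the horizontal axis. Red marks Gja5, blue Gja1, green Gjc1 and grey the 7 other connexins analysed here past the count minimum, and the red segment is 14.9 to 17.99 in BSA and 5.24 to 10.6 in PA.

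Among the connexins and pannexins analysed here, PA went with lower levels of several minor connexins and higher Panx1. Of 19 genes, 12 passed the count minimum, and the 7 that did not were Gja10, Gjb6, Gjc3, Gjd2, Gjd3, Gje1 and Panx2, with 0 to 8 counts in total. Besides Gja5, 11 were tested in PA against BSA. In siNTC 4 of them fell (Gja3, Gjb5, Gjd4 and Gja4), in siErk3 4 fell (Gja3, Gjb1, Gjb5 and Gjd4) and in siMk5 3 fell (Gja3, Gjb5 and Gjd4), and in each only Panx1 rose, while DESeq2 called 3 lower in each state. In siNTC, siErk3 and siMk5, 15.1%, 16.3% and 14.6% of all tested genes were called lower and 15.5%, 15.8% and 15.1% higher. The family's median log2 differences were -0.055, -0.58 and -0.93, beside -0.025, -0.0078 and -0.015 over all tested genes.

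Gja3, a connexin of the lens, went from 4.35 ± 0.702 to 2.09 ± 0.181 TMM CPM in siNTC, from 4.64 ± 0.144 to 2.09 ± 0.372 in siErk3 and from 4.63 ± 1.07 to 1.47 ± 0.212 in siMk5. Gjd4, a connexin of developing mouse muscle, went from 2.77 ± 0.357 to 1.07 ± 0.17997 in siNTC, from 4.09 ± 0.506 to 2.06 ± 0.703 in siErk3 and from 2.84 ± 0.598 to 1.37 ± 0.242 in siMk5. Both genes passed in all 3 states, with FDR of 1.18e-05, 7.66e-07 and 9.24e-09 for Gja3 and 2.26e-05, 2.96e-05 and 2.52e-04 for Gjd4 (edgeR). Gjb5, an epidermal connexin, had 29 counts in siNTC BSA and 12 in siNTC PA. Its call there (FDR 0.0486) was lost with DESeq2 (FDR 0.0902), without siNTC BSA replicates 2 or 3 (FDR 0.06196 and 0.345) and without siNTC PA replicates 2 or 3 (FDR 0.189 and 0.1997).

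Gjb1, a connexin of liver and Schwann cells, had 15 counts in all, 9 of them in siErk3 BSA replicate 3, and without that library its call in siErk3 was lost (FDR 0.201). Gja6, Gjb2 and Panx3 had 27, 30 and 33 counts over all libraries.

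**Figure D4:**
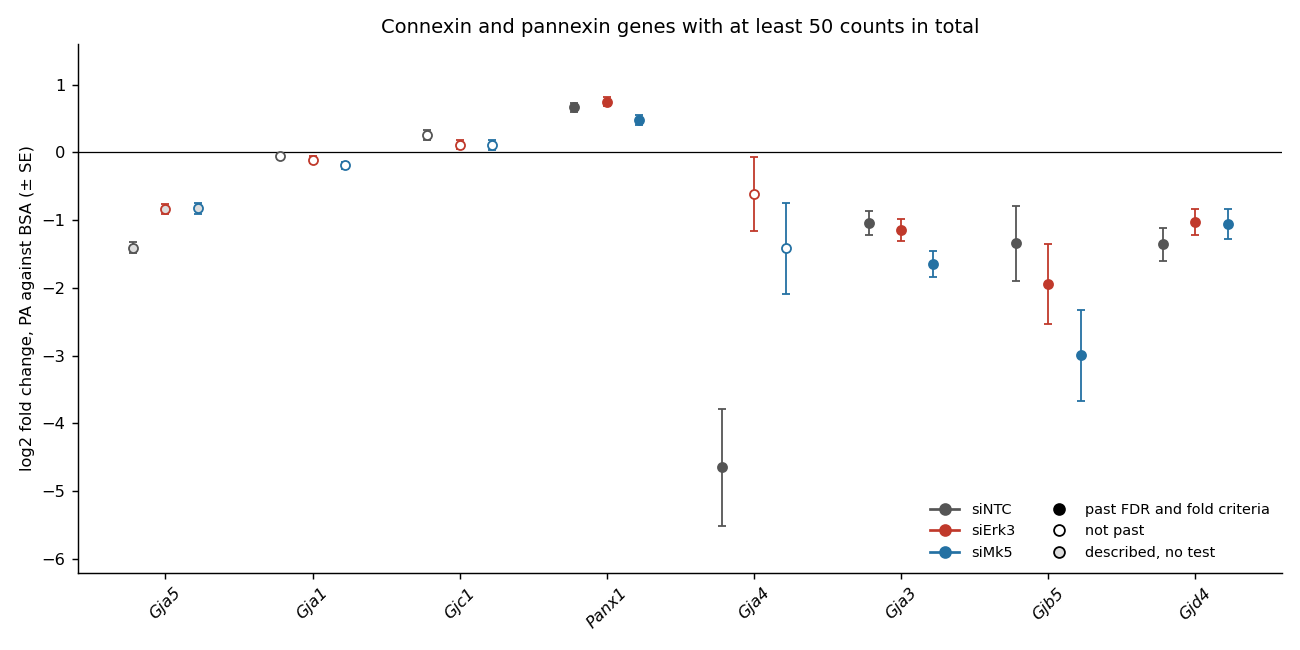
Difference between PA and BSA (vertical axis, log2 fold change ± SE from edgeR) for the 8 connexin and pannexin genes analysed here with at least 50 counts over the 18 libraries, in siNTC (grey), siErk3 (red) and siMk5 (blue). Filled points passed both criteria, open points did not and grey-filled points (Gja5) were not tested, and Panx1 alone has filled points above 0.

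Silencing called no connexin or pannexin of those analysed here. Of 12 tested in BSA, 0 passed in siErk3 and 0 in siMk5, where 0.785% and 0.0643% of all tested genes did. At an unadjusted p below 0.05 there were 2 and 1 (edgeR). Of 11 tested in PA, 0 passed in siErk3 and 0 in siMk5, where 0.556% and 0.547% of all genes did, with 2 and 2 at that level. DESeq2 called 0 throughout, and these zeros are to be read against the low shares. Gjd4 came nearest, in siErk3. Its libraries gave 3.16, 2.46 and 2.695 TMM CPM in siNTC BSA and 3.51, 4.43 and 4.33 in siErk3 BSA. In PA they gave 1.12, 0.866 and 1.21 in siNTC and 2.01, 1.38 and 2.78 in siErk3. The groups overlapped in neither medium, as for 11.5% of all tested genes that lay higher in siErk3 in BSA and 6.3% in PA. The Gjd4 difference was log2 0.59 ± 0.19 in BSA (FDR 0.169) and 0.91 ± 0.25 in PA (FDR 0.0912). It passed the criteria in PA without siErk3 PA replicate 2 (log2 1.16, FDR 0.0181), with no count minimum (FDR 0.00707) and, in BSA, when only the compared groups were fitted (FDR 0.0267). Between siErk3 and siMk5, 0 of the list passed in BSA (0.588% of all genes) and 0 in PA (1.03%), with 1 and 3 at an unadjusted p below 0.05. For the interactions, 0 passed for siErk3 (0.0367% of all genes) and 0 for siMk5 (0.211%), with 1 and 2 at that level. DESeq2 again called 0.

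Transcripts of proteins that anchor, recycle or modify connexin channels changed with PA in both directions. All 14 junction partners analysed here were tested, of which 5 fell and 1 rose in siNTC, 7 fell and 1 rose in siErk3, and 7 fell and 1 rose in siMk5. Over all tested genes the shares called lower were 15.1%, 16.3% and 14.6%, and those called higher 15.5%, 15.8% and 15.1%. Median log2 differences of the partners were -0.31, -0.39 and -0.37, beside -0.025, -0.0078 and -0.015 over all genes. Cav1, the main protein of caveolae, fell from 346 ± 14.04 to 151 ± 18.2 TMM CPM in siNTC (log2 -1.200 ± 0.084, FDR 2.32e-13, edgeR). Jup, a catenin of cell junctions, fell from 341 ± 23.95 to 208 ± 5.197 in siNTC, and Nedd4, a ubiquitin ligase that acts on Gja1 protein, from 1548 ± 49.3 to 1102 ± 78.8. Ezr, which ties membrane proteins to actin, rose from 73.9 ± 5.91 to 133 ± 8.12. In siErk3 and in siMk5 all 4 of these genes passed in the same direction. Silencing called 0 and 0 partners in BSA (5 and 4 at an unadjusted p below 0.05, 0 by DESeq2) and 0 and 0 in PA (4 and 3, 0 by DESeq2), for siErk3 and siMk5. Of all tested genes it called only 0.785% and 0.0643% in BSA and 0.556% and 0.547% in PA.

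Of 23 transcription factors known to act on connexin genes, 20 passed the count minimum. PA raised 6 and lowered 4 of them in siNTC, raised 7 and lowered 6 in siErk3, and raised 6 and lowered 6 in siMk5, with median log2 differences of 0.11, 0.058 and -0.039, beside -0.025, -0.0078 and -0.015 over all genes. The shares of all tested genes called higher were 15.5%, 15.8% and 15.1%, and those called lower 15.1%, 16.3% and 14.6%. Klf4, a zinc-finger factor, rose from 33.8 ± 1.01 to 144 ± 2.58 TMM CPM in siNTC (log2 2.09 ± 0.049, FDR 5.07e-25, edgeR), and Fos, a partner in AP-1, from 5.19 ± 0.926 to 21.02 ± 5.12 (log2 1.996 ± 0.17, FDR 3.01e-11). Tbx18, a repressor of the T-box family, fell from 54.6 ± 1.19 to 35.2 ± 2.22, Hes1, a Notch target, from 45.6 ± 3.39 to 29.96 ± 0.497, and Mef2a, a muscle factor, from 247 ± 12.9 to 179 ± 1.47. The same 5 factors passed in siErk3 and siMk5 in the same directions. Tbx5, which activates Gja5 in the heart, did not reach the count minimum. Silencing called 0 and 0 of the 20 in BSA (3 and 2 at an unadjusted p below 0.05 in siErk3 and siMk5, 0 by DESeq2) and 0 and 0 in PA (1 and 1, 0 by DESeq2). Of all tested genes it called only 0.785% and 0.0643% in BSA and 0.556% and 0.547% in PA.

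ATP that leaves through Panx1 is read by P2 receptors and broken down by ectonucleotidases, while caspases can cut Panx1 open. All 17 genes of this list were tested, and 8 fell and 2 rose with PA in siNTC, 6 fell and 2 rose in siErk3 and 6 fell and 2 rose in siMk5, with median log2 differences of -0.094, -0.32 and -0.17, beside -0.025, -0.0078 and -0.015 over all genes. Of all tested genes, 15.1%, 16.3% and 14.6% were called lower and 15.5%, 15.8% and 15.1% higher in these states. The ATP-gated channel P2rx4 rose from 29.7 ± 2.61 to 41.9 ± 2.45 TMM CPM in siNTC (log2 0.49 ± 0.069, FDR 4.47e-07, edgeR), and the ectonucleotidase Entpd2 from 0.2898 ± 0.0823 to 2.09 ± 0.261. The related channels P2rx5 and P2rx6 fell from 13.6 ± 0.635 to 7.34 ± 0.811 and from 8.12 ± 1.14 to 2.81 ± 0.946. These 4 genes passed in the same directions after either silencing. Silencing called 0 and 0 of the 17 in BSA (2 and 1 at an unadjusted p below 0.05 in siErk3 and siMk5, 0 by DESeq2) and 0 and 0 in PA (2 and 1, 0 by DESeq2). Of all tested genes it called only 0.785% and 0.0643% in BSA and 0.556% and 0.547% in PA.

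Markers of other cell states moved with PA beside Gja5. All 8 myotube markers had lower estimates in PA in every silencing state, and 6 passed in siNTC (Myog, Myh8, Ckm, Ttn, Mymk and Mymx), 3 in siErk3 and 3 in siMk5 (Myog, Myh8 and Mymx in both), where 15.1%, 16.3% and 14.6% of all genes were called lower. Their summed level was 8111 to 8536 TMM CPM in siNTC BSA and 6132 to 6482 in siNTC PA, and 6542 to 7424 in siErk3 PA and 5950 to 7219 in siMk5 PA. In siErk3 against siNTC, 3 of the 8 (Myh3, Myh8 and Actn2) passed as higher in BSA and 2 (Myh8 and Actn2) in PA, where 0.785% and 0.556% of all genes passed in either direction. In siMk5, 0 of the 8 passed in BSA and 0 in PA, where 0.0643% and 0.547% of all genes did. The 5 fibroblast markers summed to 1447 to 1670 TMM CPM in siNTC BSA and 587 to 778 in siNTC PA, with 511 to 719.7 in siErk3 PA and 441 to 627 in siMk5 PA. The 6 markers of smooth muscle and pericytes summed to 634 to 702 and 354 to 433 in siNTC, with 309 to 406 in siErk3 PA and 339.6 to 393 in siMk5 PA. The 5 myoblast markers summed to 253 to 282 in siNTC BSA and 176 to 194 in siNTC PA. Of 7 cardiac markers 6 passed the count minimum, and they summed to 1428 to 1468 in siNTC BSA and 1277 to 1329 in siNTC PA, with 1414 to 1512 in siErk3 PA and 1346 to 1421 in siMk5 PA. The cardiac sum holds members that went opposite ways. Most of that sum came from among Nppa, Myl7, Myl4 and Hcn4, the other genes of the list, and little from Nppb, Tnni3 and Myh6. With PA, Nppb, a natriuretic peptide, rose in all 3 states (0.3897 ± 0.0509 to 0.956 ± 0.0779 TMM CPM in siNTC, FDR 0.0117, edgeR), while Tnni3, a cardiac troponin, fell in siNTC (0.964 ± 0.2805 to 0.421 ± 0.111, FDR 0.00735) and Myh6, a myosin heavy chain, fell in siErk3 and siMk5 (FDR 1.52e-06 and 1.52e-04). In BSA, Myh6 rose after both silencings, from 12.5 ± 1.77 in siNTC to 20.01 ± 0.146 in siErk3 (FDR 2.64e-05) and 18.7 ± 0.275 in siMk5 (FDR 0.00251). The part of these cell states in the Gja5 level was not tested.

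The genes whose log2 level followed Gja5 most closely over the 18 libraries were Stac3 (Pearson r = 0.981), Gdf6 (0.974), Shroom3 (0.971), Frmpd1 (0.968) and Rassf7 (0.965), out of 12712 genes of at least 1 TMM CPM on average. The points share their libraries, depth and the PA contrast, so these coefficients are a description. By Spearman's rho 2 of the 5 stayed among the 5 highest. Stac3, a protein of excitation-contraction coupling in muscle, averaged 36.9 ± 0.199 TMM CPM in siNTC BSA, 23.1 ± 1.73 in siNTC PA, 27.7 ± 2.702 in siErk3 PA and 27.9 ± 2.65 in siMk5 PA. Gdf6, a growth factor of the BMP family, averaged 6.89 ± 0.323, 1.88 ± 0.251, 2.89 ± 0.375 and 2.73 ± 0.422 in the same groups. Frmpd1, a scaffold with FERM and PDZ domains, averaged 65.8 ± 1.21, 38.5 ± 2.96, 46.6 ± 1.75 and 46.9 ± 3.91. Since likeness to Gja5 chose these genes, their differences carry no test. Of the listed genes, Gja1 had r = 0.697, Gjc1 r = -0.651 and Panx1 r = -0.893 with Gja5.

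**Figure D5:**
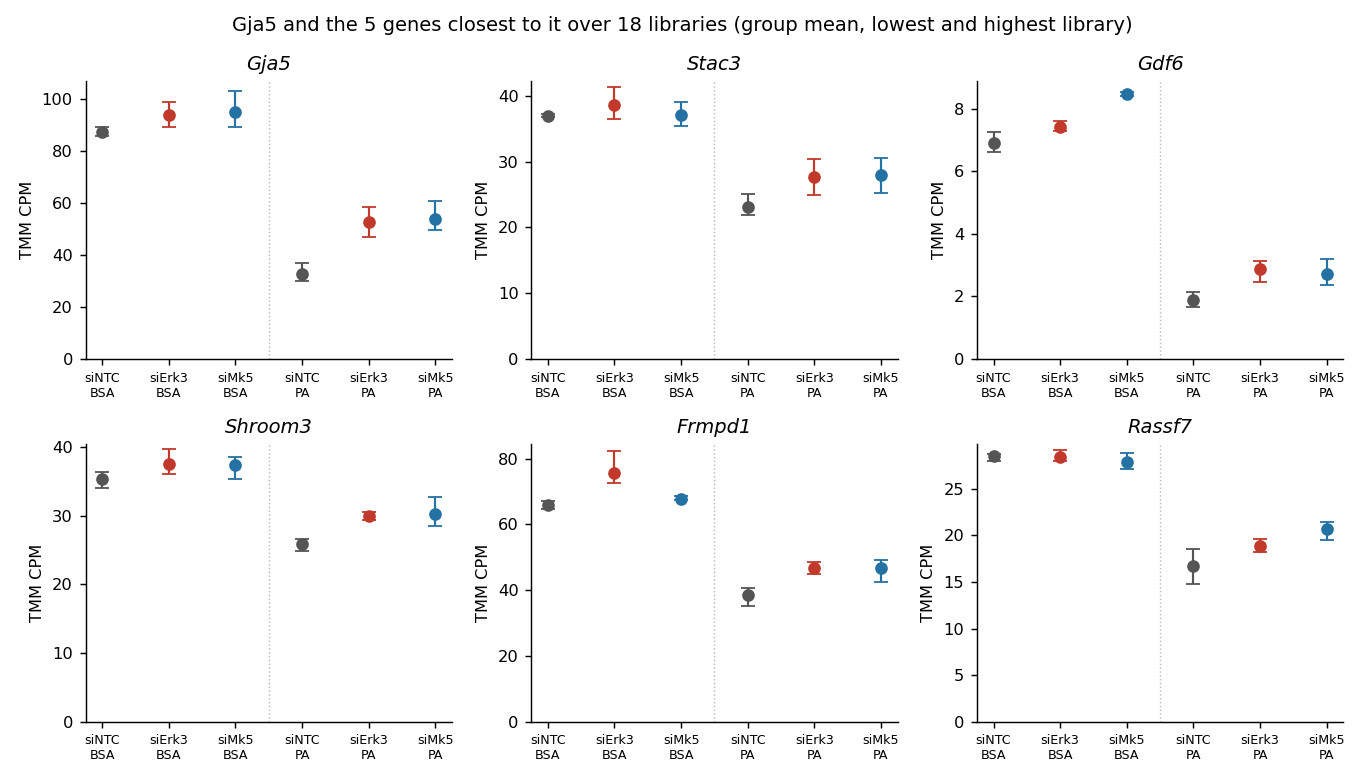
Level (vertical axis, TMM CPM from 0) of Gja5 and the 5 genes closest to it by Pearson r over the 18 libraries, by siRNA and medium on the horizontal axis. Points are group means and bars span the lowest to the highest of 3 libraries, and in every panel the 3 PA means lie below the 3 BSA means with siNTC PA lowest.

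Around Gja5, 20 other genes lie within 200 kb and 11 of them passed the count minimum. With PA in siNTC, Rnf115 rose (log2 0.40 ± 0.061, FDR 1.35e-06, edgeR) and Pias3 and Nudt17 fell (log2 -0.66 ± 0.082, FDR 5.20e-08, and log2 -0.46 ± 0.18, FDR 0.0322). In siErk3 and siMk5 only Pias3 passed, with log2 differences of -0.82 ± 0.079 and -0.68 ± 0.081. Called over all genes were 15.5% higher and 15.1% lower in siNTC, 15.8% and 16.3% in siErk3, and 15.1% and 14.6% in siMk5. Median log2 differences of the 11 were -0.26, 0.017 and 0.16 in these states, beside -0.025, -0.0078 and -0.015 over all tested genes. Gpr89, which shares exonic bases with Gja5 on the other strand, averaged 31.98 ± 1.22 TMM CPM in siNTC BSA and 34.1 ± 0.735 in siNTC PA (log2 0.090 ± 0.054, FDR 0.187).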

How the data were processed

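RNA was measured in 18 libraries of C2C12 myotubes, grouped by siRNA and medium from the sample labels, with 3 libraries in each of 6 groups. Strand-specific poly(A)-selected paired reads were trimmed by the authors with cutadapt 3.4 and TrimGalore 0.6.7 and aligned to GRCm39 with STAR 2.7.9a, and duplicates were marked and kept. The unnormalized gene counts that the authors deposited came from featureCounts 2.0.0 on Ensembl 105 exons (paired reads, strand setting 2, primary alignments, mapping quality of at least 3). The submitters' processing notes name mm10 as the build, whereas the header of the count table and the methods name GRCm39. A second table deposited by the authors, with log2 values, was not used.

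A total of 10 counts or more admitted a gene to the test, which was run with edgeR 4.0.16 (quasi-likelihood, TMM, limma 3.58.1, R 4.3.3), with 1 coefficient per group over all 18 libraries and Benjamini-Hochberg adjustment over 21772 genes. The criteria were those of the methods, FDR below 0.05 and a fold change above 1.3. Symbols came from GENCODE M39 for 54749 of 55414 genes. The fit was tested on simulated data. DESeq2 1.42.0, other scalings, count minimums, a replicate block, fewer groups, the FDR alone, removal of the 18S gene and leaving out each library were alternatives. Total counts limit the precision of low genes, and intervals of count ratios are exact 95% intervals of counting error only. Named were the members, the other connexins and pannexins analysed here, at most the 4 genes of smallest p per list and comparison, the 5 genes most like Gja5, its neighbours, the markers and the silenced genes. Members and lists were chosen with earlier results of these data known. Figures were drawn with matplotlib 3.10.9. Columns of samples of other series numbered 0. Some further genes of the connexin family and of the junction partners are not reported here and were left out of the counts and sums.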

Additional observations from a re-analysis of the deposited data

How the results depend on the processing

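Of 1066 values under alternatives that kept all libraries, 1048 stayed the same, and 894 of 918 did so when a library was left out. For a tested gene this meant the same direction and the same side of the criteria. For Gja5 where it carried no test, it meant the same direction and a shift smaller than its within-group SD on the log2 scale. For counts of genes it meant staying within 1.5 times, and counts that were 0 and stayed 0 are among them. With the FDR alone, Gja1 joined Panx1 in siMk5 and made 2 members, and Gjc1 joined Panx1 among higher connexin and pannexin genes in siNTC and made 2. For siErk3 against siNTC, the connexin and pannexin count was 1 rather than 0, by Gjd4, in PA with no count minimum and in BSA with only the compared groups, and it ranged from 0 to 1 in PA over the fits without a library. The cause of these changes was not tested. By Spearman's rho 2 of the 5 genes most like Gja5 stayed among the 5 highest.

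How libraries of the same number deviated was compared by 45 correlations over 9332 genes. These ran from -0.67 to 0.58 (mean -0.0042), and 7 of 18 libraries were closest to their own number. In 0 of 15 pairs of groups did all 3 exceed 0.1. The mean joins opposite signs within PA. For replicates 1, 2 and 3, siErk3 PA against siMk5 PA gave 0.58, 0.039 and 0.48. siNTC PA gave -0.66, 0.0023 and -0.67 against siErk3 PA, and -0.57, 0.026 and -0.47 against siMk5 PA. Gja5 also ran opposite ways from replicate 1 to 3 in PA. It went down in siNTC (36.9, 31.6 and 30.1 TMM CPM) and up in siErk3 (47.1, 52.7 and 58.7) and siMk5 (49.7, 50.6 and 60.99), so its difference was smallest at replicate 1. Whether libraries of the same number shared a batch or culture was not tested. With the replicate number as a block, 1 connexin passed for siErk3 in PA (Gjd4, log2 0.91, FDR 0.0494).

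Leaving out libraries gave log2 ranges that crossed 0 only for differences that passed no criterion or carried no test. For siErk3 against siNTC these were Panx1 in BSA (-0.065 to 0.042), Gja1 in PA (-0.050 to 0.042) and Gjc1 in PA (-0.041 to 0.056). For siErk3 against siMk5 they were Gja5 in BSA (-0.056 to 0.052) and PA (-0.097 to 0.074), Gja4 in BSA (-0.66 to 0.40) and Gja1 in PA (-0.019 to 0.073). For PA against BSA it was Gja4 in siErk3 (-0.92 to 0.15), and for the siErk3 interaction Gja1 (-0.085 to 0.0065). Gja5 kept its direction against siNTC in PA, at 0.61 to 0.77 in siErk3 and 0.61 to 0.80 in siMk5. Depth limits Gja4 and the minor connexins, where a few counts decide a call.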
